A study of Rattus norvegicus with 14 samples.

Results

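The genes described here are 36 genes of Kupffer cells, the macrophages that live in the liver sinusoids, and of myeloid cells and leukocytes at large. Each gene was read from its single probe annotated with exactly 1 gene symbol, and 34 of the 36 had such a probe among the 14506 genes tested. Timd4, a phosphatidylserine receptor of resident macrophages, and Msr1, a scavenger receptor, were not analysed here. The list has 2 blocks: 5 measured genes mark resident Kupffer cells and 29 are shared by macrophages, granulocytes or all leukocytes, or, in the case of Ctsb and Lgals3, by many other cells too. All animals were lean female Zucker rats, heterozygous (fa/+) for a leptin receptor mutation and about 15 weeks old. In the extract group, 7 rats ate a standard diet supplemented for 64 days with a rosemary extract at 0.05% w/w. Carnosic acid, a phenolic compound of rosemary, made up 40% of that extract. In the control group, 7 rats ate the standard diet without it for the same 64 days. Total RNA of whole liver was hybridised to 1 array per rat, and the comparison asks which liver transcripts differed with the extract at the end of feeding.

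Kupffer cells clear bacteria, immune complexes, aged red cells and modified proteins from portal blood through lectins, complement receptors and scavenger receptors. They depend on signalling through the CSF1 receptor and on the transcription factor PU.1, the product of Spi1. Rodent Kupffer cells are told from other macrophages by a small set of surface proteins, the lectin Clec4f among them. Leukocyte genes such as Ptprc are expressed by lymphocytes and granulocytes as well as macrophages.

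Values are log2 RMA expression values, and a fold is the extract mean minus the control mean on that scale. Over all genes the median per array lay between 6.00 and 6.18, and pairs of arrays correlated between 0.984 and 0.997. The median of all probes was 5.10. The markers that define Kupffer cells and macrophages lay well above it in controls (10.21 for Clec4f, 10.37 for Vsig4 and 9.24 for Cd68), while Marco, at 6.14, lay nearer to it. In bulk liver RNA, fewer cells of a type and less RNA per cell cannot be told apart.

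Kupffer cell and myeloid transcripts were lower with the extract in 4 genes, 2 of them resident markers and 2 the subunits of a complement-binding integrin. In limma's moderated test, Vsig4, Marco, Itgam and Itgb2 fell at a Benjamini-Hochberg adjusted p of 0.05 over all genes, 0 of the 34 rose and 30 did not pass. Over all 14506 genes, 3.15% passed in either direction and 1.15% passed as lower with the extract. The log2 fold was negative in 31 of 34 members, against 50.3% of all genes, and its median was -0.24, against -0.00088 over all genes. At an unadjusted p of 0.05, 22 members were lower and 1 was higher, where 7.40% of all genes were lower and 7.45% higher. The median standard error of a member's fold was 0.103, against 0.0867 over all genes. The number of members that passed was 2 without extract rat 1 or extract rat 2 and 7 without extract rat 7. A test of each gene with its own variance in each group (the separate-variance test, which lacks limma's moderation) passed 2 members, Marco and Itgam. Centring each array on its median left the same 4 members called, while it moved the share of higher genes among all calls to 74.2%, against 63.5% as deposited.

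**Figure D1:**
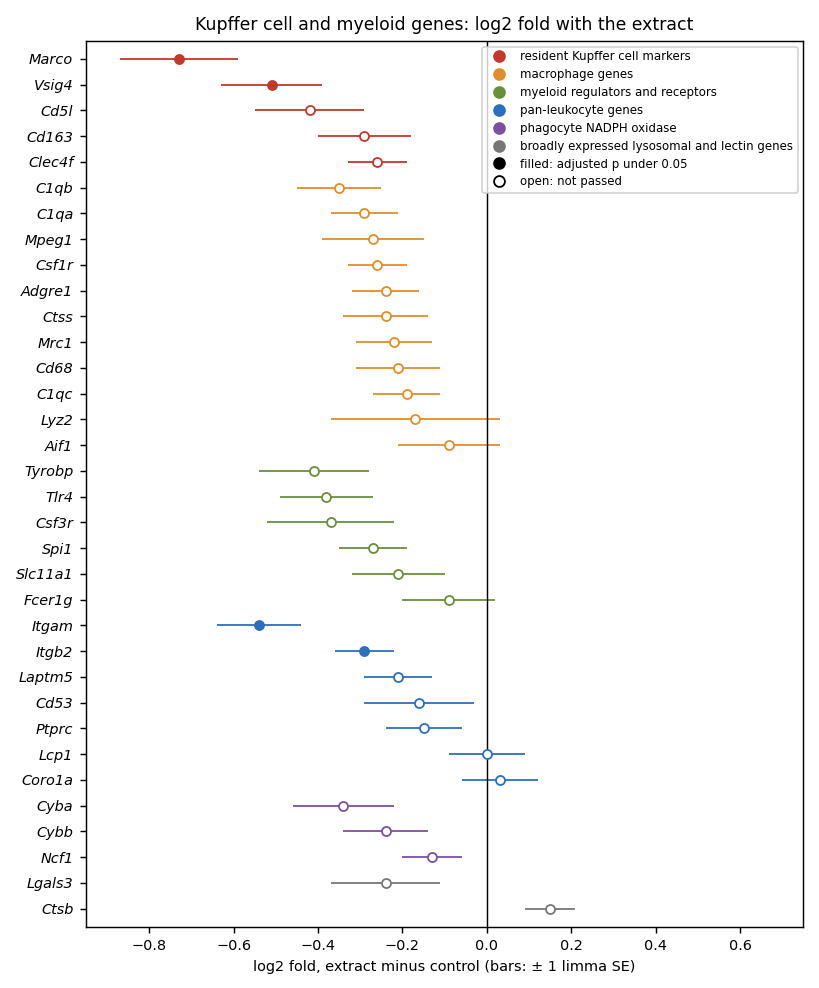
Log2 fold (extract minus control, x axis) of the 34 measured members (y axis), coloured by role group and ordered by fold within it. Points are limma estimates from 7 rats a group, bars are 1 standard error, and filled points passed an adjusted p of 0.05. Points left of the zero line are lower with the extract, which holds for 31 of the 34.

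Among resident Kupffer cell markers, Marco, a scavenger receptor for bacteria and particles, fell the most. Its values ran from 4.87 to 5.62 in extract rats, with a median of 5.57, and from 5.78 to 6.70 in controls, with a median of 6.10. All 7 extract rats lay below all 7 controls, which was the case for 0.455% of all genes. The log2 fold was -0.73 ± 0.14 (SE, n = 7 each; limma adjusted p = 0.00586), or 0.604 of the control level. RMA compresses folds near background, and the extract values of Marco lay near the median of all probes.

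Vsig4, the receptor that binds complement-coated particles on Kupffer cells, ran from 9.46 to 10.16 in extract rats, with a median of 9.94, and from 10.14 to 10.83 in controls, with a median of 10.37. The groups overlapped slightly at 1 edge, and 6 of 7 extract rats lay below all controls. Its log2 fold was -0.51 ± 0.12 (SE, n = 7 each; limma adjusted p = 0.0243), or 0.704 of the control level. The call was lost without extract rat 1 or 2 (adjusted p = 0.0542 and 0.0617) and in the separate-variance test (adjusted p = 0.0972).

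Clec4f, a lectin that rodent Kupffer cells carry, just missed the threshold although its groups did not overlap. It ran from 9.69 to 10.09 in extract rats, with a median of 9.97, and from 10.11 to 10.33 in controls, with a median of 10.17. The fold was -0.26 ± 0.07 on the log2 scale (SE, n = 7 each; limma adjusted p = 0.0525, 0.049 to 0.11 when each rat was left out in turn). After repeated quantile normalization Clec4f passed (adjusted p = 0.0274), and it passed when genes dimmer than the median gene were dropped (adjusted p = 0.0497).

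Cd5l, a secreted protein that macrophages release into plasma, and Cd163, the scavenger receptor for haptoglobin-bound haemoglobin, did not pass. Cd5l had 6.96 to 8.02 in extract rats, with a median of 7.73, and 7.68 to 8.31 in controls, with a median of 7.99 (log2 fold -0.42, limma adjusted p = 0.11). Cd163 had 8.01 to 8.69 in extract rats, with a median of 8.41, and 8.38 to 8.93 in controls, with a median of 8.69 (log2 fold -0.29, limma adjusted p = 0.19). The groups overlapped in each of these genes, where 3 extract rats lay below every control.

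**Figure D2:**
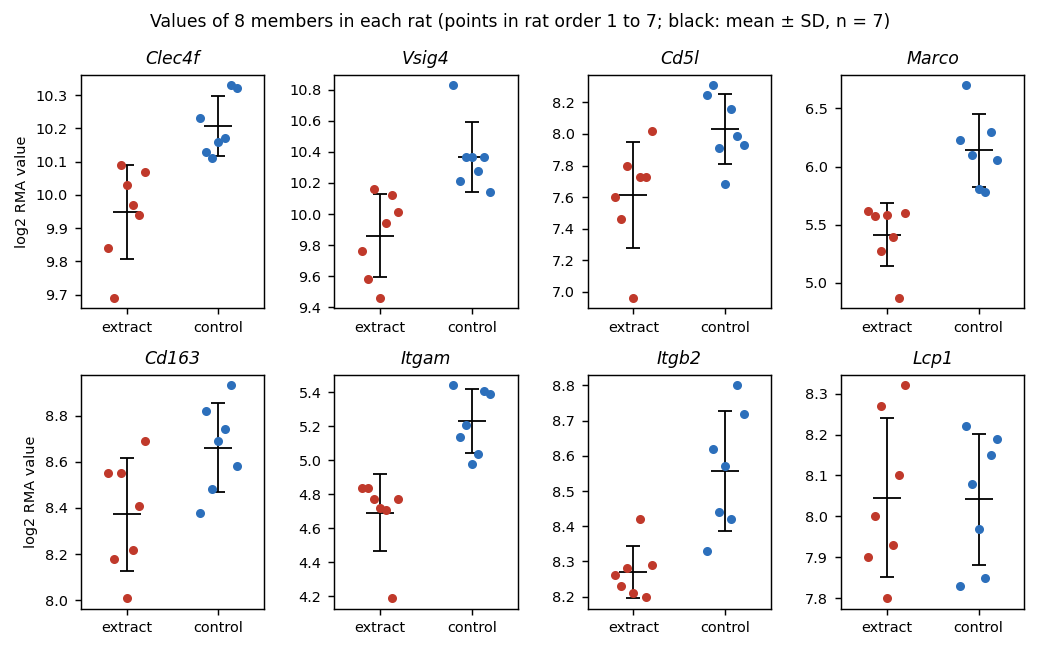
Log2 RMA values (y axis, a scale of its own in each panel that does not start at 0) of 8 members in each of the 7 extract and 7 control rats (x axis). Points are rats in the order of their numbers, and black lines are the mean ± SD. The groups are apart in Clec4f, Marco and Itgam, touch in Vsig4 and Itgb2, overlap in Cd5l and Cd163, and share their range in Lcp1.

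The integrin subunits Itgam and Itgb2 pair to form the complement receptor that monocytes, granulocytes and macrophages use to bind and engulf opsonised particles. Itgam ran from 4.19 to 4.84 in extract rats, with a median of 4.77, and from 4.98 to 5.44 in controls, with a median of 5.21. The groups did not overlap, and the log2 fold was -0.54 ± 0.10 (SE, n = 7 each; limma adjusted p = 0.00619). Extract rat 6 stood lowest, and without it the call of Itgam was held. Both means of Itgam, 4.69 ± 0.23 in extract rats and 5.23 ± 0.19 in controls (SD, n = 7 each), lay near the median of all probes. Itgb2, the partner that all leukocyte integrins of this class share, ran from 8.20 to 8.42 in extract rats, with a median of 8.26, and from 8.33 to 8.80 in controls, with a median of 8.57. Its log2 fold was -0.29 ± 0.07 (SE, n = 7 each; limma adjusted p = 0.043), with 6 of 7 extract rats below all controls. The call of Itgb2 held without extract rat 5, control rat 1 or control rat 5 and was lost when any other rat was left out (11 rats; adjusted p = 0.052 to 0.0905). It was also lost with an intensity trend and robust variance (adjusted p = 0.0773) and in the separate-variance test (adjusted p = 0.10). With the rat number as a replicate block it was lost too (limma adjusted p = 0.11).

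Promoter windows are shown because PU.1, which drives many myeloid genes, binds the sequence GAGGAAGT. They are those of the called members that had a window and of Ctss and Cd53, which were not called. RefSeq's GRCr8 table held a window for 24 of the 34 measured members, all 5 resident markers among them. The 250 bases before the annotated start were searched on both strands for GAGGAAGT, and, chosen after the windows had been seen, for its first 6 letters, GAGGAA, which every GAGGAAGT contains. Of the 24 windows, 2 held GAGGAAGT (8.33%), those of Ctss and Cd53, against 2.04% of all 33469 promoters. GAGGAA was in 16 of the 24 (66.7%), against 23.3% of all promoters and 23.4% of the 11968 promoters of genes tested here. Of the 3 called members with a window, Marco held 1 GAGGAA and Itgam 2, while Vsig4 held 0, as did Clec4f and Cd163. Over the full 300-base RefSeq windows, as first planned, the same numbers of members held each sequence, against 2.42% and 27.6% of all promoters. These are matches of letters and not measured binding. Capitals mark GAGGAA, GAGGAAGT or their reverse complements, and each sequence is the 250 bases upstream of the start, written 5′ to 3′ along the gene's strand.
Marco (GRCr8 chr13:34201256-34201505, minus strand): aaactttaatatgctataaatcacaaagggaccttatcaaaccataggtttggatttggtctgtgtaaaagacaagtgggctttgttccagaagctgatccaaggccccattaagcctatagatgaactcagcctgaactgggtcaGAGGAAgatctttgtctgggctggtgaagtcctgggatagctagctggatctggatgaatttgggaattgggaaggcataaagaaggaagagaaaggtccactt
Itgam (GRCr8 chr1:192089342-192089591, plus strand): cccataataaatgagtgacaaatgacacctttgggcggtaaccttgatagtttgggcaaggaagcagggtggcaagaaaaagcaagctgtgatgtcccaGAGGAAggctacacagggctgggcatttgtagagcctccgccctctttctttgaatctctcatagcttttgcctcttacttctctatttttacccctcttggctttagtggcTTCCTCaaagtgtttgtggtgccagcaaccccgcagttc
Vsig4 (GRCr8 chrX:65179709-65179958, minus strand): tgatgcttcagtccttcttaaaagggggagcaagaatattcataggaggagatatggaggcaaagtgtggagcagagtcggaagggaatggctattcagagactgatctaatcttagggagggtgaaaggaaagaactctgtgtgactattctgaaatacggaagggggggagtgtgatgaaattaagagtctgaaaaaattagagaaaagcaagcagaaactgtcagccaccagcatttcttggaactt
Ctss (GRCr8 chr2:185775146-185775395, plus strand): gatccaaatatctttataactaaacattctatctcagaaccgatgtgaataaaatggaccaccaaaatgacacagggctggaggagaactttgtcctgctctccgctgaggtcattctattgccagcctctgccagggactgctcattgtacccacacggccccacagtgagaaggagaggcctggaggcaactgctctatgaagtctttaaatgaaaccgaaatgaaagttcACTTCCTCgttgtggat
Cd53 (GRCr8 chr2:197087897-197088146, minus strand): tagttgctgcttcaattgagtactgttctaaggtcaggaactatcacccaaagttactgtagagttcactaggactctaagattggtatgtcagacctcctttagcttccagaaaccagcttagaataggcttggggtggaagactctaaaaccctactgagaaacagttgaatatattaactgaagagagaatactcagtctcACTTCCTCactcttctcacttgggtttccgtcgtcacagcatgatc

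Of the 11 measured macrophage genes, 0 passed, all 11 had a negative log2 fold, and the median was -0.24. At an unadjusted p of 0.05, 8 of the 11 were lower, while the separate-variance test called 0. C1qa, C1qb and C1qc, which encode the chains of the complement component that macrophages supply, had log2 folds of -0.29, -0.35 and -0.19 (limma adjusted p = 0.0575, 0.0848 and 0.27). C1qa ran from 8.79 to 9.23 in extract rats, with a median of 9.13, and from 9.20 to 9.59 in controls, with a median of 9.35. In C1qa 5 of 7 extract rats lay below all controls, so the groups shared only a narrow range.

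Csf1r, the receptor for the growth factor on which macrophages depend, ran from 8.39 to 8.74 in extract rats, with a median of 8.59, and from 8.60 to 9.02 in controls, with a median of 8.83. Its log2 fold was -0.26 ± 0.07 (SE, n = 7 each; limma adjusted p = 0.0603), with 5 of 7 extract rats below all controls. Csf1r passed after repeated quantile normalization (adjusted p = 0.0272) and without extract rat 7 or control rat 3 (0.0424 and 0.0322).

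Adgre1, an adhesion receptor used as a macrophage marker in mice, had a log2 fold of -0.24 (limma adjusted p = 0.15), the lysosomal protease Ctss one of -0.24 (0.24) and the lysosomal glycoprotein Cd68 one of -0.21 (0.34). The fold of Cd68 was -0.13 without extract rat 4. Mrc1, the mannose receptor that sinusoidal endothelium also carries, had a log2 fold of -0.22 (limma adjusted p = 0.25). Mpeg1, a pore-forming protein of phagocytes, had a log2 fold of -0.27 (limma adjusted p = 0.30), with 5 of 7 extract rats below all controls but extract rat 7 above them all. Without extract rat 7 its log2 fold was -0.37 and it passed (adjusted p = 0.031).

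The macrophage genes with the smallest folds were Lyz2, a lysozyme, and Aif1, an actin-binding protein of macrophages, at -0.17 and -0.09 on the log2 scale (limma adjusted p = 0.77 and 0.81). When each rat was left out in turn Lyz2 ran from -0.26 to -0.02 and Aif1 from -0.15 to -0.0049, both nearest to 0 without control rat 1. Lyz2 had the widest spread of the 34 members, with an SD of 0.37 in extract rats and 0.49 in controls. How far the probe of Lyz2 separates it from other lysozyme genes was not tested.

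Among myeloid regulators and receptors 0 of 6 passed, all 6 folds were negative and the median was -0.32 (4 had an unadjusted p under 0.05, and the separate-variance test called 0). Spi1, the gene of PU.1, ran from 6.74 to 7.11 in extract rats, with a median of 6.83, and from 7.02 to 7.37 in controls, with a median of 7.05. In Spi1 6 of 7 extract rats lay below all controls, with a log2 fold of -0.27 ± 0.08 (SE, n = 7 each; limma adjusted p = 0.0907). Spi1 passed with array weights (adjusted p = 0.0357) and without extract rat 4 (0.0429).

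Tyrobp and Fcer1g encode adaptors that couple activating receptors to signalling in myeloid cells. Tyrobp ran from 9.20 to 9.92 in extract rats, with a median of 9.48, and from 9.66 to 10.50 in controls, with a median of 9.82 (log2 fold -0.41, limma adjusted p = 0.11). Fcer1g ran from 9.67 to 10.19 in extract rats, with a median of 9.96, and from 9.79 to 10.39 in controls, with a median of 9.90 (log2 fold -0.09, limma adjusted p = 0.78). The median of Fcer1g was thus higher in extract rats while its mean was lower, and without the 2 arrays of lowest weight its log2 fold was 0.02.

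Tlr4, the receptor for bacterial endotoxin, had a log2 fold of -0.38 ± 0.11 (SE, n = 7 each; limma adjusted p = 0.0761), with 6 of 7 controls above all extract rats. It passed without control rat 5 (adjusted p = 0.0162). Csf3r, the receptor of the granulocyte growth factor, had a log2 fold of -0.37 (limma adjusted p = 0.21) at means of 5.12 ± 0.28 in extract rats and 5.50 ± 0.34 in controls (SD, n = 7 each), near the median of all probes. Slc11a1, a metal transporter of phagosomes, had a log2 fold of -0.21 (limma adjusted p = 0.41; log2 fold -0.13 without control rat 2).

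Of the 7 genes grouped as pan-leukocyte, the integrin subunits fell and 5 did not pass, and the median log2 fold was -0.16. Itgam is in this group although its receptor is one of monocytes, granulocytes and macrophages. Ptprc, the phosphatase known as the common leukocyte antigen, ran from 7.13 to 7.43 in extract rats, with a median of 7.31, and from 7.25 to 7.89 in controls, with a median of 7.38 (log2 fold -0.15 ± 0.09 SE, n = 7 each; limma adjusted p = 0.50; log2 fold -0.08 without control rat 6). The groups of Ptprc overlapped over most of the extract range.

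Lcp1, an actin-bundling protein of leukocytes, ran from 7.80 to 8.32 in extract rats, with a median of 8.0, and from 7.83 to 8.22 in controls, with a median of 8.08. Coro1a, a coronin of leukocytes, ran from 6.28 to 6.65 in extract rats, with a median of 6.35, and from 6.20 to 6.70 in controls, with a median of 6.36. Neither had a stable direction: their log2 folds were 0.0014 ± 0.09 and 0.03 ± 0.09 (SE, n = 7 each), and each was below 0 when some rats were left out. Cd53, a tetraspanin, and Laptm5, a lysosomal membrane protein of blood cells, had log2 folds of -0.16 and -0.21 (limma adjusted p = 0.64 and 0.16), and that of Cd53 was -0.10 without extract rat 2.

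The phagocyte NADPH oxidase makes superoxide in the phagosome. Its membrane subunits Cybb and Cyba had log2 folds of -0.24 and -0.34 (limma adjusted p = 0.26 and 0.15), and its cytosolic subunit Ncf1 had one of -0.13 (0.39), so 0 of 3 passed (2 had an unadjusted p under 0.05, and the separate-variance test called 0). Cyba ran from 6.59 to 7.20 in extract rats, with a median of 6.98, and from 7.00 to 7.82 in controls, with a median of 7.21, and the highest control was rat 1. The cytosolic partners from a companion list, Rac2 and Ncf4, did not pass either, with a median log2 fold of -0.14 and Rac2 first (-0.19, limma adjusted p = 0.35).

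The 2 members that many liver cells besides leukocytes express went in opposite directions, and neither passed. Ctsb, a lysosomal cysteine protease, was the 1 member higher at an unadjusted p of 0.05, at 12.40 to 12.65 in extract rats, with a median of 12.53, and 12.22 to 12.48 in controls, with a median of 12.39. Its log2 fold was 0.15 ± 0.06 (SE, n = 7 each; limma adjusted p = 0.25). Lgals3, a galectin, had a log2 fold of -0.24 (limma adjusted p = 0.43).

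**Figure D3:**
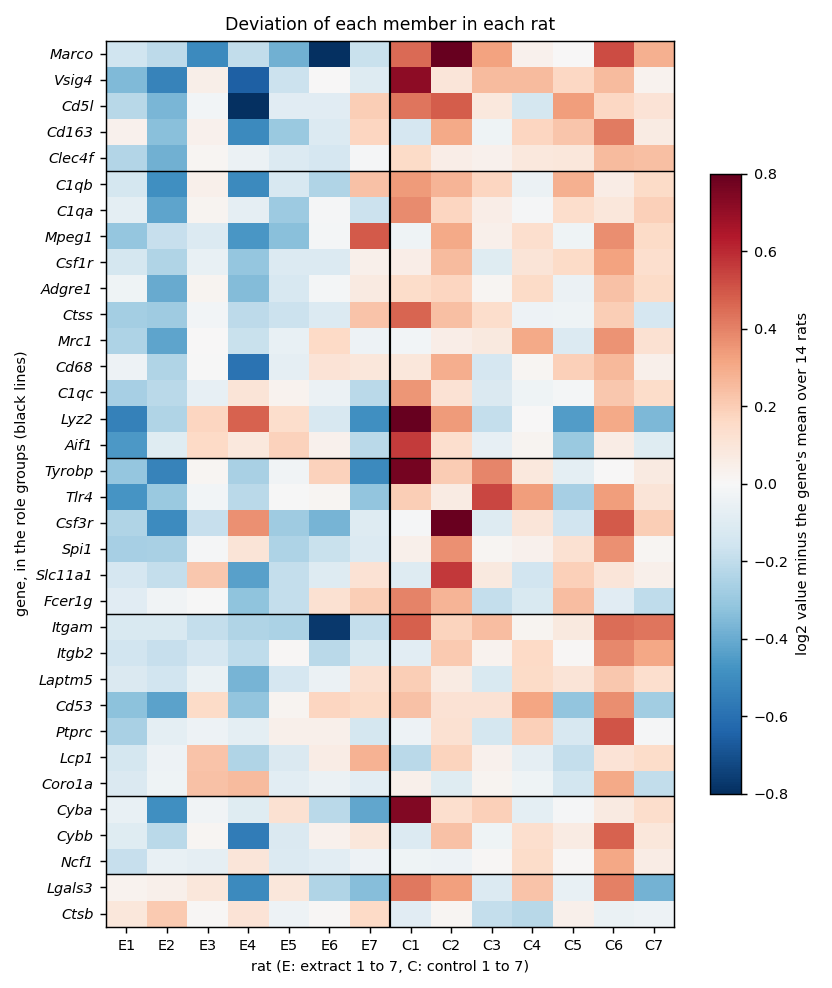
Deviation of each member (rows, in the 6 role groups) in each rat (columns) from that gene's mean over the 14 rats, on the log2 scale. Deviations past 0.8 take the end colours. Extract rats 1 and 2 lie below the gene's mean in 31 and 32 of 34 members, and control rats 2 and 6 in 2 each.

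The rats of a group were not alike. A member lay below its 14-rat mean in 31, 32, 16, 26, 26, 22 and 19 of the 34 genes in extract rats 1 to 7, and in 11, 2, 13, 12, 17, 2 and 9 of them in control rats 1 to 7. Extract rats 1 and 2 were therefore low in nearly all members, whereas extract rats 3 and 7 and control rat 5 lay near the middle. The deviation averaged over the 34 members was lowest in extract rat 2 (-0.25 on the log2 scale) and highest in control rat 6 (0.26).

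The resident markers had a larger median fold than the other members. The median log2 fold was -0.42 over the 5 resident markers and -0.24 over the 29 other members. The larger fold did not hold for every resident marker: Clec4f (-0.26) and Cd163 (-0.29) lay close to the median of the other members. With the 2 arrays of lowest weight left out (extract rat 4 and control rat 1), the resident median was -0.27 and the other median -0.18. Averaged per rat as deviations from each gene's mean, the resident markers lay between -0.45 and 0.02 in extract rats and between 0.08 and 0.37 in controls, with no overlap. The other members lay between -0.23 and 0.01 in extract rats and between -0.02 and 0.25 in controls, where extract rat 3 reached above the lowest control. Separation was not particular to the resident markers. The myeloid regulators and receptors (-0.30 to 0.0034 against 0.01 to 0.38) did not overlap between extract rats and controls either. Nor did the phagocyte NADPH oxidase genes (-0.25 to -0.03 against 0.02 to 0.28), while the remaining role groups overlapped.

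The resident average minus the other average was -0.11 ± 0.11 in extract rats and 0.11 ± 0.06 in controls (SD, n = 7 each), a difference of -0.22 on the log2 scale. By rat it was 0.00, -0.14, -0.10, -0.28, -0.13, -0.18 and 0.06 in extract rats 1 to 7, and 0.11, 0.17, 0.11, 0.02, 0.19, 0.07 and 0.11 in control rats 1 to 7. Only extract rat 7 reached into the control range, and 6 of 7 extract rats lay below all controls. The difference ran from -0.25 to -0.19 when each rat was left out in turn. The filter on dim genes gave a smaller difference of -0.16. It left Marco out of the resident markers, and Itgam, Csf3r and Ncf1 out of the other members. The contrast is a description of a list chosen with earlier results known, and no test was made of it.

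**Figure D4:**
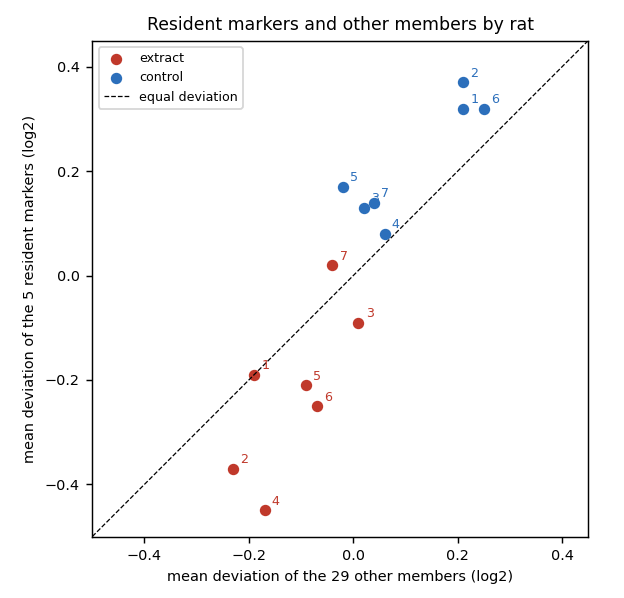
Mean deviation of the 5 resident markers (y axis) against that of the 29 other members (x axis) in each rat, both on the log2 scale and numbered by rat. All 7 controls lie above the dashed line of equal deviation, while 5 extract rats lie below it, extract rat 1 on it and extract rat 7 above it.

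Genes tied to Kupffer cell identity and iron recycling were taken from a companion list of 13, of which 12 were measured. Of these 3 fell, 0 rose and 9 did not pass, with a median log2 fold of -0.21. The iron recycling genes Slc40a1 and Hmox1 were among those that did not pass (log2 folds 0.11 and -0.17, limma adjusted p = 0.60 and 0.50). Nr1h3, the oxysterol receptor LXR alpha, which hepatocytes express too, ran from 10.02 to 10.27 in extract rats, with a median of 10.12, and from 10.25 to 10.71 in controls, with a median of 10.42. Its log2 fold was -0.35 ± 0.08 (SE, n = 7 each; limma adjusted p = 0.016), and the call was held without any 1 rat. Folr2, the folate receptor of resident macrophages, had 8.33 to 8.92 in extract rats, with a median of 8.86, and 8.92 to 9.39 in controls, with a median of 9.07 (log2 fold -0.38, limma adjusted p = 0.0362). No extract rat lay above a control in Folr2, but its call was lost without each of 7 rats (adjusted p = 0.0516 to 0.0856) and after median centring (0.051). Zeb2, a zinc finger transcription factor, had a log2 fold of -0.39 ± 0.09 (SE, n = 7 each; limma adjusted p = 0.0251), lost without extract rat 2 or 5 or control rat 2 or 7 (0.055 to 0.0632). The separate-variance test passed none of the 3 (adjusted p = 0.0581 for Nr1h3, 0.0808 for Zeb2 and 0.10 for Folr2). All 3 calls were also lost with the rat number as a replicate block (limma adjusted p = 0.0671, 0.0673 and 0.0671).

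Of 6 genes of CSF1 receptor ligands and other myeloid growth factors and their receptors, 1 fell and 5 did not pass. It was Csf2rb, the signalling chain shared by the receptors of GM-CSF and other cytokines (log2 fold -0.31 ± 0.08 SE, n = 7 each; limma adjusted p = 0.0345). The call of Csf2rb was lost without each of 8 rats (adjusted p = 0.0517 to 0.0755), with quantile normalization repeated (0.0639) and with median centring (0.0549). Among 8 measured Fc receptors and efferocytosis genes, Fcgr3a, an activating receptor for immunoglobulin, fell (log2 fold -0.49 ± 0.13 SE, n = 7 each; limma adjusted p = 0.0493) and 7 did not pass. Its call was held only without extract rat 3 or control rat 5, and was lost when any other rat was left out (12 rats; 0.0532 to 0.12), with quantile normalization repeated (0.08) and with median centring (0.0641). Neither gene passed the separate-variance test (adjusted p = 0.10 for Csf2rb and 0.15 for Fcgr3a). How far the probe of Fcgr3a separates it from related Fc receptors was not tested.

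Toll-like receptors and their partners showed no shared direction: limma called 0 of 9, 5 of the 9 folds were negative, and the median was -0.03. The smallest p was that of Cd14, the endotoxin co-receptor, with a positive log2 fold (0.19, limma adjusted p = 0.17; 1 of the 9 had an unadjusted p under 0.05, and the separate-variance test called 0). Of 17 measured lysosomal genes 1 rose, 0 fell and 16 did not pass, with 7 of 17 folds negative and a median log2 fold of 0.12. At an unadjusted p of 0.05, 6 of the 17 were higher and 2 lower, and their average deviation overlapped between the groups, at -0.13 to 0.20 in extract rats and -0.11 to 0.04 in controls. Ctsl, a lysosomal cysteine protease of hepatocytes and macrophages, rose to 11.46 to 11.65 in extract rats, with a median of 11.61, against 11.09 to 11.46 in controls, with a median of 11.19. Its log2 fold was 0.35 ± 0.07 (SE, n = 7 each; limma adjusted p = 0.00792), and 6 of 7 extract rats lay above all controls. The call of Ctsl was lost with the rat number as a replicate block (limma adjusted p = 0.0515).

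Markers of other cell types moved with the members in part. Hepatocyte markers had a median log2 fold of -0.03, with 0 of 12 called and Ttr first (-0.11, limma adjusted p = 0.40). Their average deviation lay between -0.06 and 0.04 in extract rats and between -0.08 and 0.11 in controls. Stellate cell markers had a median of -0.24, as large as that of the macrophage genes. In that list 1 of 9 fell, the growth factor receptor Pdgfrb (-0.37 ± 0.09 SE, n = 7 each; limma adjusted p = 0.0415, lost without each of 11 rats; 0.12 in the separate-variance test), and 7 of 9 folds were negative. At an unadjusted limma p of 0.05, 4 of the 9 were lower and 0 higher, where 7.40% of all genes were lower. The stellate average lay between -0.32 and 0.05 in extract rats and between -0.03 and 0.32 in controls.

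Of 7 measured markers of sinusoidal endothelium, all 7 folds were negative and 0 passed, with a median of -0.16 and Pecam1, an adhesion molecule, first (-0.24, limma adjusted p = 0.20). Their average lay between -0.39 and 0.23 in extract rats and between -0.01 and 0.20 in controls, so the groups overlapped. Erythroid markers also had negative folds in 5 of 5, 0 of which passed, with a median of -0.16 and Hbb, a globin, first (-0.29, limma adjusted p = 0.34). Their average lay between -0.45 and 0.39 in extract rats and between -0.09 and 0.44 in controls. Bile duct markers had positive folds in 4 of 4, of which 0 passed (median 0.19; Krt7, a keratin, first at 0.23, limma adjusted p = 0.18). Krt7, Krt19 and Spp1 had means below the median of all probes in both groups, and Epcam lay above it. The part of these cell types in the folds of the members was not tested.

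Markers of other leukocytes gave no count above 1. Monocyte markers had a median log2 fold of -0.14 and neutrophil markers of -0.08, with 0 of 6 and 0 of 10 called. Plac8, a monocyte gene, came first in its list (-0.49, limma adjusted p = 0.0981; 0.00433 without control rat 5), and Mmp9, a neutrophil gelatinase, in its own (-0.19, limma adjusted p = 0.33). Dendritic cell markers had a median of 0.07 and T and NK cell markers of -0.03, with 0 of 5 and 0 of 13 called. Their first genes were Ccr7, a chemokine receptor (0.15, limma adjusted p = 0.61), and Klrd1, a lectin-like receptor of NK cells (-0.34, limma adjusted p = 0.29). In each list of another cell type with 0 calls by limma, 0 to 2 genes had an unadjusted p under 0.05 and the separate-variance test called 0. Of 5 B and plasma cell markers, Cd22, an inhibitory lectin of B cells, fell (-0.39 ± 0.08 SE, n = 7 each; limma adjusted p = 0.0121), while the list's median was -0.02. The call of Cd22 was held without any 1 rat and in the separate-variance test. With the rat number as a replicate block it was lost (limma adjusted p = 0.0596).

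**Figure D5:**
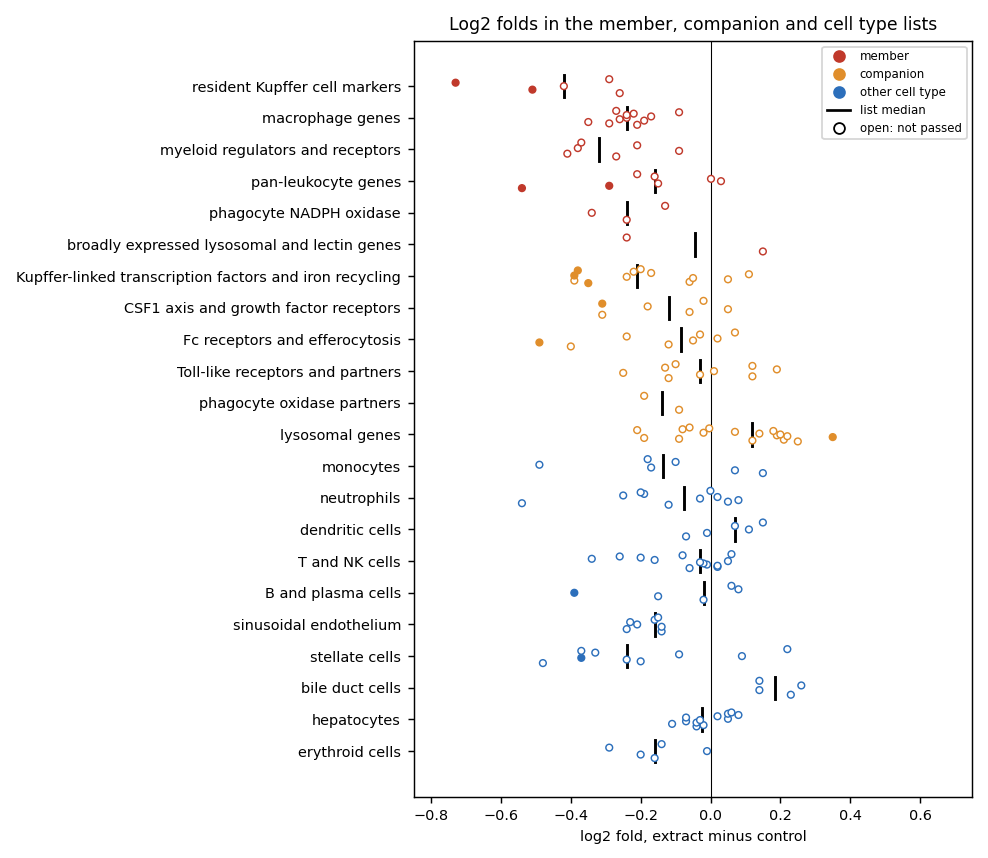
Log2 fold (extract minus control, x axis) of each measured gene in the 22 lists (y axis): 6 role groups of members, 6 companion lists and 10 lists of other cell types. Filled points passed an adjusted p of 0.05 and black bars are list medians, which lie furthest left for the resident Kupffer cell markers, at -0.42.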

How the data were processed

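The authors deposited log2 values for 29215 probes in 14 rats, made by RMA in Affymetrix Expression Console 1.1.2 per the submitters' processing notes. Options and genome build are not given in the sources used here. The series title gives the extract dose as 0.5% and the sample labels as 0.05%, which is printed. Each array is a separate rat, and no batch was used. The number of arrays limits the precision.

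GEO's platform annotation named the probes (15310 with 1 gene symbol, 323 with several, 13582 unnamed here), with Entrez identifiers checked against the GRCr8 gene table, which held 15279 and changed 0 symbols. The brightest probe per gene by mean over 14 arrays gave 14506 genes, and no member had a second probe. Groups were compared with limma 3.58.1 (lmFit, eBayes, two-sided, no covariate) in R 4.3.3, adjusted by Benjamini-Hochberg over all genes at 0.05. Folds are extract minus control. The test was checked on simulated data for this comparison over 14506 genes, where it called 16% of the simulated log2 changes of size 0.25, 86.8% of those of 0.5 and 99.6% of those of 1.0, with 6.55% of calls false. Python 3.11.15, pandas 2.3.3 and matplotlib 3.10.9 made the tables and figures.

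The members, lists and tests were chosen with earlier results of these data known. All 34 measured members are named, with up to 3 passing genes of every other list by smallest p, or its first gene. These are the 52 named genes. Some further list genes are given only for their level or direction and are not among them. Alternatives were repeated quantile normalization, median centring, a filter on dim genes, the mean of a gene's probes, array weights, a robust variance with an intensity trend, a test with separate variances, a replicate block by rat number, a threshold of 0.1, and each array left out. Leaving out the 2 arrays of lowest weight was added after the data had been seen.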

Additional observations from a re-analysis of the deposited data

Results flagged for a closer look

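In 104 groups of 7 rats (52 named genes in 2 diets) and 6 groups of list averages, 5 values, from 4 rats, stood further from the rest of their group than Dixon's 95% limit for 7 values, where chance flags about 1 group in 20. Extract rat 6 had the lowest Itgam value at 4.19, with the next at 4.71. Extract rat 5 had the highest Itgb2 value of its group at 8.42, with the next at 8.29. Control rat 1 had the highest Vsig4 value at 10.83, with the next at 10.37, and the highest Cyba value at 7.82, with the next at 7.27. Control rat 5 had the lowest Plac8 value of its group at 7.30, with the next at 7.97.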

How the results depend on the processing

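The count of members called was 4, and over all genes 457. It was 2 and 227 in the separate-variance test, 5 and 694 with array weights, and 10 and 719 at an adjusted p of 0.1. Leaving out each rat in turn gave 2 to 7 members and 326 to 621 genes. Marco and Itgam were called in every setting that tested them. The filter on dim genes left both out and called Clec4f, Vsig4, C1qa and Itgb2. The resident median ran from -0.49 to -0.31 without each rat and was -0.27 without the 2 arrays of lowest weight, the other median from -0.26 to -0.20, and their difference per rat kept its sign throughout. Without those 2 arrays Fcer1g was at 0.02. Without single rats Coro1a ran from -0.01 to 0.09 and Lcp1 from -0.04 to 0.04. In these reversals the cause was not tested. With the rat number as a replicate block, 3 members and 364 genes were called. In that fit Itgb2, Nr1h3, Zeb2, Folr2, Fcgr3a, Ctsl, Cd22 and Pdgfrb lost their calls (limma adjusted p = 0.0515 to 0.11). The rat numbers name rats and do not pair them. Same-numbered deviations correlated between -0.46 and 0.282, over 0.1 in 4 of 7 pairs, and 2 extract rats matched their own number best. Over 52 named genes and 23 alternative fits, 1082 of 1188 results kept direction and call, 81 lost a call, 16 gained one and 9 changed sign. Values near background limit Itgam, Marco, Csf3r and Ncf1, whose folds may be too small. How far their probes read signal above background was not tested, so their folds may also be unreliable.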
